A study of Mus musculus with 30 samples.

Results

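Medullary thymic epithelial cells (mTEC) were set against the other 4 stromal populations sorted from the same kind of tissue, the thymus of newborn mice. The mTEC libraries are 6 of the 30 in the series, and they were taken by their label: 2 control and 4 Trap libraries. RNA of cells sorted by flow cytometry was sequenced, and the level of each gene is given in FPKM, a read density that corrects for gene length and for the size of the library. All mice were B6.SJL of mixed sex, injected on postnatal day 1 and taken at age 3 days. Trap mice received aflibercept, a soluble decoy receptor that binds VEGF-A, and control mice an hFC antibody. After digestion, most CD45-positive cells were removed magnetically, and every gate excluded CD3, CD4, CD8, CD45 and Ter119. The mTEC gate held EpCAM-positive cells with low or no Ly51. The cortical epithelial gate (cTEC) held EpCAM-positive cells with Ly51. The others were CD31-positive endothelium (Endo) and the mesenchymal gates CD140a and CD146, both without EpCAM and CD31. Each of these 4 populations also had 2 control and 4 Trap libraries, so that 24 libraries stand for the others. How many animals a library holds, and whether populations came from the same animals, is not stated in the labels. The p-values therefore reflect how far these libraries vary among themselves, and that variation may be technical.

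The thymic medulla is where developing T cells are tested against the body's own proteins. Medullary epithelial cells transcribe, each cell a different small share, genes that otherwise mark peripheral organs, and present the products to T cells that leave the cortex. The nuclear protein Aire and the zinc finger factor Fezf2 are known to drive much of this transcription. Some medullary cells also take on the program of a peripheral cell type, such as tuft cells, keratinocytes, microfold cells of gut lymphoid follicles, ciliated cells or muscle cells, and are called mimetic cells. In RNA from a whole sorted population, fewer cells of a type and less RNA per cell cannot be told apart.

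The sequences shown lie directly before the starts of 2 genes that were near silent in the other populations and of the regulator Aire. Shown are the 250 bases before the RefSeq start of each gene (build GRCm38.p6), 5′ to 3′ on the gene's strand, all outside the gene as GENCODE M21 places it. Capitals mark CG pairs, the sites of DNA methylation, since genes of broad use tend to start in sequence rich in such pairs and genes of 1 tissue often do not.
Lyz1 (chr10:117292869-117293118, minus strand): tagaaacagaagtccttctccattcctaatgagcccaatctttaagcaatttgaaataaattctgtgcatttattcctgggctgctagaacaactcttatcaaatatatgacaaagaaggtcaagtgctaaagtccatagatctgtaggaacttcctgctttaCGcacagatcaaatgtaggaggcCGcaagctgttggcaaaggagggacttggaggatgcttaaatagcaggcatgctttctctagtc
Lypd8 (chr11:58378782-58379031, plus strand): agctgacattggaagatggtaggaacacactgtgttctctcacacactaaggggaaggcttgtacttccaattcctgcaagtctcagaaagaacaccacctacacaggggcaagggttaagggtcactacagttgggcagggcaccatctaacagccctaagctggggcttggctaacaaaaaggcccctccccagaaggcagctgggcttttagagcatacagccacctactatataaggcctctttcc
Aire (chr10:78043611-78043860, minus strand): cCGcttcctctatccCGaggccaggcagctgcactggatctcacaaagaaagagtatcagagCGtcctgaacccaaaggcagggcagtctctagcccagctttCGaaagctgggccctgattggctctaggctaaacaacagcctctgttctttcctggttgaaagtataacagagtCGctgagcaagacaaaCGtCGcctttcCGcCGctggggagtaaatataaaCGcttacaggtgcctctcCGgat
The lysozyme gene Lyz1 had 2 CG pairs in this window and the gut antibacterial gene Lypd8 had 0. Aire had 11, near the median of 13 over the genes of the table with a listed start. Such a start was found for 71.8% of the genes and for 68.6% of those silent outside mTEC. Both shares are under 80%, so a comparison of whole sets on these windows is void. A feature with near full coverage, the CG content of transcripts, is given further on.

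The defining markers stood where the label puts them. Aire lay at 114 and 141 FPKM in the mTEC controls and at 110.4, 96.9, 153 and 141 FPKM in the Trap libraries, and no other library passed 1.98 FPKM. Fezf2 lay at 92.2 to 142 FPKM (median 125, n = 6), with a highest other library of 2.15 FPKM. Krt5, a keratin of basal epithelium, lay at 237 to 441 FPKM against 77.3 FPKM on average in cTEC and 1.52 FPKM or less in the others. Cd80, a ligand that costimulates T cells, lay at 64.4 to 87.0 FPKM, and at 6.70 FPKM in the highest other library. In all 4 genes the 6 mTEC libraries lay above all 24 others. The control and Trap libraries of mTEC overlapped in each. Of the genes behind the sort gates, Epcam averaged 472 FPKM in mTEC and 306 FPKM in cTEC. Enpep, which encodes Ly51, averaged 2.00 FPKM in mTEC and 22.7 FPKM in cTEC, and Ptprc, which encodes CD45, 0.76 FPKM in mTEC.

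**Figure D1:**
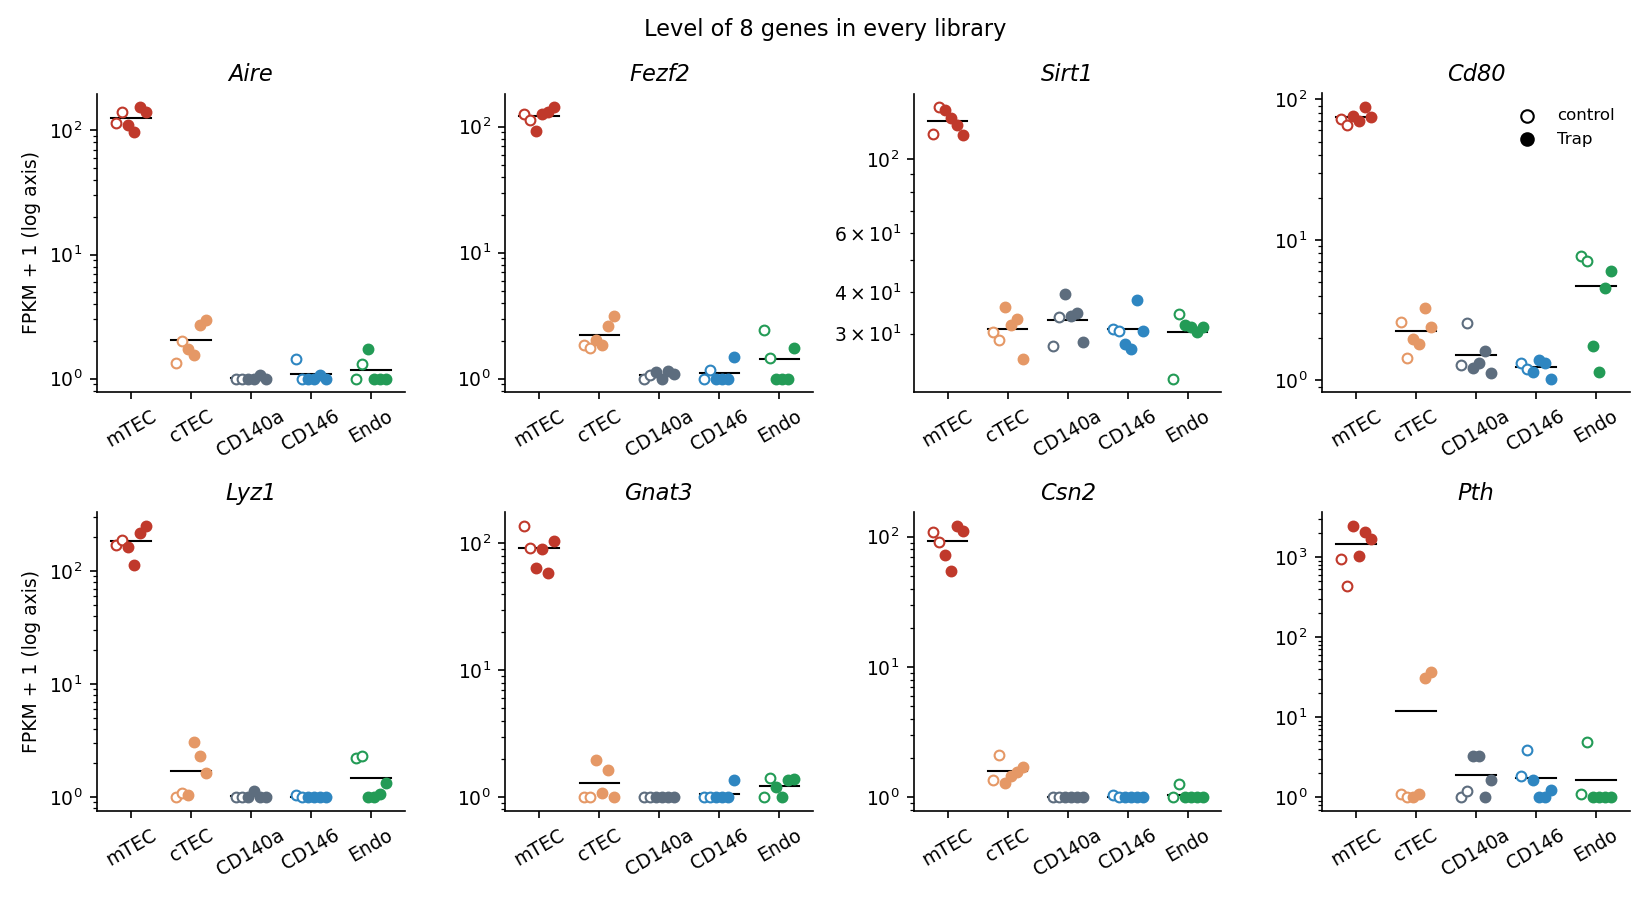
Level of 8 genes in every library, as FPKM + 1 on a log axis, by population; open points are control libraries, filled points Trap libraries, and the bar is the mean of 6 libraries. In each gene the 6 mTEC libraries lie above all 24 others; for Aire they span 96.9 to 153 FPKM against at most 1.98 FPKM elsewhere.

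Markers of endothelium and fibroblasts were mostly lower in mTEC. Of 12 endothelial genes 0 were higher in mTEC and 11 lower, and their summed level was 11.3 to 16.9 FPKM against 1626 to 1780 FPKM in endothelium. Of 12 fibroblast genes 1 was higher, the peptidase gene Dpp4 (0.46 ± 0.12 on the log2 scale, SE), and 11 lower. Of 12 genes of pericytes and smooth muscle 9 were lower, but Rgs5, a regulator of G protein signalling in pericytes, averaged 539 ± 102 FPKM (SD, n = 6) in mTEC. It lay at 34.3 FPKM in cTEC and 3781 FPKM in CD146. The smooth muscle myosin gene Myh11, which was also higher, stood at 38.4 FPKM in mTEC and 38.2 FPKM in cTEC. The 14 thymocyte genes summed to 10.6 to 19.1 FPKM in mTEC and 70.7 to 180 FPKM in cTEC. Some genes of blood cells were higher in mTEC than the mean of the others, as were 39.4% of all genes tested. A gene that passes the filter on low values only through mTEC was nearly bound to be called higher. Of 12 genes of dendritic cells and macrophages 6 passed the filter on low values, and 5 were higher and 1 lower. The list summed to 6.72 to 17.8 FPKM in mTEC and to 11.25 to 23.1 FPKM in endothelium. The complement gene C1qb averaged 4.56 ± 3.03 FPKM, while C1qa, which encodes a partner chain, averaged 0.0367 FPKM. Of 6 B cell genes 5 passed the filter and 4 were higher, with a sum of 7.15 to 18.2 FPKM, and the B cell factor gene Pax5 averaged 3.05 ± 0.80 FPKM. Of 6 red cell genes 5 passed the filter, and 2 were higher and 1 lower, a share near that of all genes. Their sum was 14.9 to 41.5 FPKM in mTEC and 10.55 to 131.4 FPKM in endothelium. The haemoglobin gene Hba-a1 lay at 5.02 to 34.2 FPKM in mTEC (2.12 ± 0.47) and averaged 37.3 FPKM in endothelium. The median difference of the red cell list was 0.37, and -0.07 under quantile normalization. The part of such cells in the results was not tested.

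On average over the other populations, mTEC held more transcript of 6467 genes, 39.4% of the 16425 tested, and less of 2992, 18.2% (limma on log2(FPKM + 1), adjusted p under 0.05 over all genes tested). Every difference given on the log2 scale is of log2(FPKM + 1), which understates the change of genes at low levels, and stands with its standard error. The median difference over all genes was 0.19. Rescaling moved that centre and the balance of the calls. Rescaled so that each library sums to the same total (TPM) the median fell by 0.17 and 5136 genes were higher against 4165 lower. Upper quartile scaling gave 5207 and 4078, with a shift of -0.16, and quantile normalization 4443 and 5838, with a shift of -0.33. The mTEC libraries had the highest FPKM sums of the series, 213740 to 241992 against 184608 to 212124 elsewhere, and the most genes at 1 FPKM or more, 12815 to 13661 against 10298 to 11694.

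Against each population alone, mTEC were higher for 6769 genes (41.2%) and lower for 2970 (18.1%) beside CD140a mesenchyme. The counts were 6145 (37.4%) and 3277 (20%) beside CD146 mesenchyme, 6886 (41.9%) and 2904 (17.7%) beside endothelium, and 4856 (29.6%) and 2259 (13.8%) beside cTEC. A total of 2824 genes, 17.2%, were higher in mTEC than in each of the 4, and 416, 2.53%, were lower than in each. In 1483 genes (9.03%) the 6 mTEC libraries lay above all 24 others, and in 169 (1.03%) below all of them. The library profiles ran the same way: mTEC libraries correlated with each other at 0.93 to 0.95, with cTEC at 0.79 to 0.84 and with the 3 non-epithelial populations at 0.60 to 0.69 (Pearson, log2 scale, over the genes tested, which are not independent).

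The largest differences joined a hormone, survival factors, lysozymes and class II antigen presentation. The parathyroid hormone gene Pth led with 9.40 ± 0.52 (limma adjusted p = 1.25e-14). It lay at 947 and 436 FPKM in the controls and at 2463, 1016, 2069 and 1667 FPKM in the Trap libraries, a wide range in which the 4 Trap libraries lay above both controls. The change of Pth with Trap did not pass (1.41 ± 0.98; limma adjusted p = 0.890). Bcl2a1d, of a family of proteins that hold off cell death, lay at 528 to 694 FPKM (8.50 ± 0.23) and Bcl2a1b at 109 to 376 FPKM (7.03 ± 0.24). Calcb, a calcitonin gene-related peptide, was even at 536 to 761 FPKM (8.10 ± 0.23) and at 19.3 FPKM in cTEC. Lyz2 lay at 207 to 342 FPKM (7.42 ± 0.21) and Lyz1 at 113 to 253 FPKM (7.21 ± 0.16). Lyz1 and Lyz2, and the Bcl2a1 genes, are near-identical copies, so the split between the copies is uncertain. The class II genes H2-Ab1 (6.89 ± 0.24) and Cd74 (6.81 ± 0.32), the gut gene Lypd8 (6.84 ± 0.17), the trypsin inhibitor gene Spink1 (6.64 ± 0.19), the gut lectin gene Reg3g (6.62 ± 0.21) and the secreted inhibitor gene Wfdc18 (6.60 ± 0.23) followed. The phosphatase-like receptor gene Ptprq of hair cells and kidney stood at 135 to 175 FPKM (6.52 ± 0.14), with a highest other library of 6.94 FPKM. In each of these genes the 6 mTEC libraries lay above all 24 others.

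Among the genes whose 6 mTEC libraries lay below all 24 others were several of the extracellular matrix. The gelatinase gene Mmp2 lay at 1.15 to 2.47 FPKM in mTEC and at 16.3 FPKM or more on average in each other population (-3.55 ± 0.30; limma adjusted p = 8.39e-11). The secreted glycoprotein gene Fstl1 lay at 17.4 to 26.7 FPKM against 59.6 FPKM in cTEC and 1249 FPKM in CD140a (-3.50 ± 0.15). Hspg2, which encodes perlecan of basement membranes, lay at 4.60 to 7.20 FPKM against 11.5 FPKM in cTEC and 179 FPKM in endothelium (-3.13 ± 0.14). The membrane protein gene Pmp22 (-3.40 ± 0.17), the monocyte chemokine gene Ccl2 (-3.16 ± 0.28), Tns1 of cell adhesions (-3.05 ± 0.09), the kinase anchor gene Akap12 (-3.04 ± 0.14), the collagen chaperone gene Fkbp10 (-2.93 ± 0.17) and Aebp1 (-2.84 ± 0.17) were also lower.

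Among 12 regulators of medullary identity, 11 were higher in mTEC and 0 lower, and 7 were higher than in each other population. Over all genes tested these shares were 39.4%, 18.2% and 17.2%. Spib, an ETS factor, averaged 65.6 ± 12.3 FPKM (SD, n = 6) in mTEC and 3.84 FPKM in cTEC (5.03 ± 0.15). The NF-kB subunit genes Nfkb2 (1.36 ± 0.13) and Relb (0.79 ± 0.18), the kinase gene Map3k14 (0.91 ± 0.16) and the ligase gene Traf6 (1.27 ± 0.10) were higher by less. Sirt1, a deacetylase that acts on Aire, lay at 117 to 142 FPKM in mTEC, while the means of the other 4 populations lay at 29.2 to 31.9 FPKM (2.06 ± 0.09; limma adjusted p = 6.00e-17). Its highest other library held 38.5 FPKM, so the groups did not overlap. Chd4, a chromatin remodeller that works with Aire, was at 45.2 FPKM in mTEC and 39.2 to 50.5 FPKM elsewhere (0.06 ± 0.09; limma adjusted p = 0.596).

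Of 14 receptors and adaptors of the TNF family, through which the medulla receives its growth signals, 10 were higher and 3 lower. Over all genes tested 39.4% were higher and 18.2% lower, so the share lower was near that of all genes. Tnfrsf11a, the receptor RANK, lay at 61.2 to 87.3 FPKM in mTEC, 4.65 FPKM in cTEC and 19.0 FPKM in endothelium (4.35 ± 0.18). Its soluble decoy Tnfrsf11b lay at 66.3 to 87.2 FPKM and at 2.28 FPKM in cTEC (4.84 ± 0.25). Cd40 was higher than the mean of the others (2.56 ± 0.18) but close to cTEC (34.2 against 24.4 FPKM; 0.48 between them, limma adjusted p = 0.0929). The lymphotoxin receptor gene Ltbr, Tnfrsf1a (-1.50 ± 0.14) and Traf5 (-0.61 ± 0.19) were lower.

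All 16 genes of antigen presentation and costimulation that were measured were higher in mTEC, 12 of them higher than in each other population. The shares over all genes tested were 39.4% and 17.2%. The class II gene H2-Ab1 lay at 1108 to 1922 FPKM in mTEC and at 791 FPKM in cTEC (6.89 ± 0.24 against the mean of all others, 0.95 ± 0.31 against cTEC). Ctss, a protease that trims the class II chaperone, averaged 104 ± 18.2 FPKM against 5.81 FPKM in cTEC. The costimulatory gene Cd86 lay at 5.08 to 9.89 FPKM, with a highest other library of 0.48 FPKM, and Icosl at 34.4 to 52.2 FPKM. Cd274, which encodes the checkpoint ligand PD-L1, was the exception among the epithelia: it stood at 96.7 ± 16.0 FPKM in mTEC and 767 FPKM in cTEC. The difference from cTEC was -2.99 (limma adjusted p = 3.16e-14).

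Of 13 chemokines 12 were higher in mTEC and 1 lower, and 7 were higher than in each other population. Over all genes tested these shares were 39.4%, 18.2% and 17.2%. Ccl25 counted as higher, but stood at 28.8 FPKM against 111 FPKM in cTEC (-1.95 between them, limma adjusted p = 2.25e-11). Ccl21a stood at 948 FPKM against 475 FPKM in cTEC (0.88 between them, limma adjusted p = 0.115). Ccl22, a ligand of CCR4 on thymocytes, lay at 49.9 and 87.5 FPKM in the controls and 76.5, 29.8, 130.4 and 67.2 FPKM in the Trap libraries. Its highest other library held 1.27 FPKM. Ccl17, the other CCR4 ligand, ranged from 1.84 FPKM in Trap replicate 2 to 46.5 FPKM in control replicate 1. The receptor gene Ccr4 itself was at 40.7 to 80.8 FPKM in mTEC and under 1 FPKM on average in each other population. Ccl19, a guide of maturing thymocytes into the medulla, lay at 41.9 to 118 FPKM (3.97 ± 0.25). Xcl1, which attracts thymic dendritic cells and depends on Aire, lay at 1.46 to 5.73 FPKM and at most 0.87 FPKM elsewhere. Cxcl12, a chemokine of the cortex and vessels, was lower (3.59 FPKM against 59.3 in cTEC and 85.2 in endothelium; -2.44 ± 0.15).

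A gene was called silent elsewhere where its mean was 1 FPKM or more in mTEC and under 1 FPKM in each of the other 4 populations. There were 1374 such genes, 7.29% of the 18847 in the table. The same rule gave 318 genes for endothelium, 222 for CD146, 183 for CD140a and 141 for cTEC. Since the levels define these sets, the counts are a description and no test was made on them. The difference in number held at higher levels: 326 genes reached 5 FPKM in mTEC, against 15 to 74 elsewhere, and 48 reached 20 FPKM, against 2 to 31. Most were low, with 1048 between 1 and 5 FPKM and a median of 2.32 FPKM. A total of 756 had no other library at 1 FPKM, and 89 were listed at 0 in all 24. The highest other mean was in cTEC for 588 of them, in CD140a for 276, in CD146 for 265 and in endothelium for 245. Quantile normalization left 836 genes silent elsewhere.

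**Figure D2:**
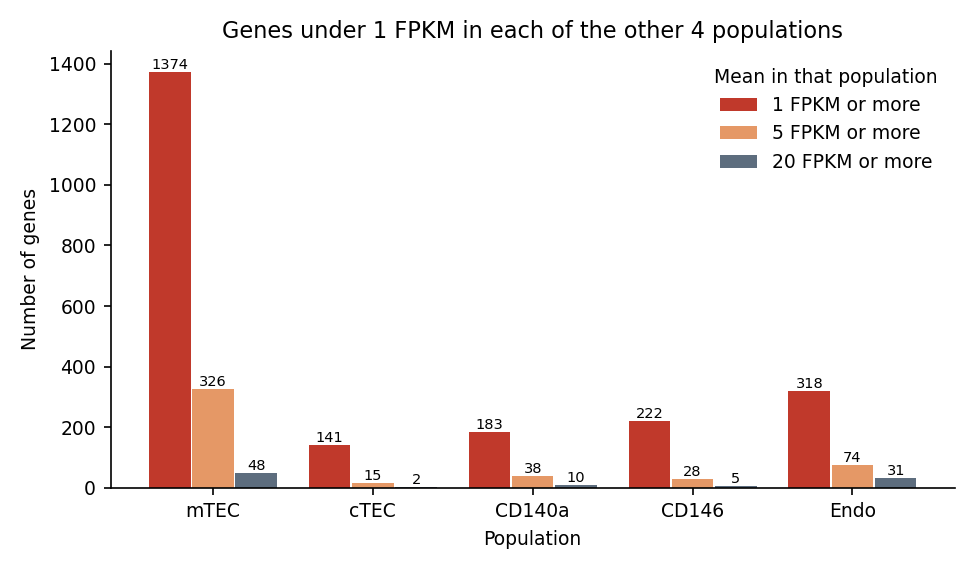
Number of genes whose mean is under 1 FPKM in each of the other 4 populations, for each population (horizontal axis) and for 3 minimum means in that population (bars from 0). The count for mTEC is 1374 at 1 FPKM, against 141 to 318 for the other populations.

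These genes varied from library to library. In the mTEC controls 1118 and 1182 of the 1374 reached 1 FPKM, and in the Trap libraries 968, 960, 1144 and 1156. Trap replicates 1 and 2 were thus the lowest, while replicates 3 and 4 lay between the controls. A total of 602 genes (43.8%) reached 1 FPKM in all 6 libraries and 126 were listed at 0 in at least 1. They took 2.40% to 3.39% of the FPKM of an mTEC library and at most 0.177% of any other. Some were very even: the synaptic vesicle gene Syt1 lay at 43.2, 43.4, 38.4, 46.0, 40.6 and 42.8 FPKM over the 6 libraries. Others were not: the cornified envelope gene Sprr4, named after its values were seen, ran from 2.30 to 101 FPKM. The coefficient of variation over the 6 libraries had a median of 51.3% for this set, and of 39.4% to 80.6% for the sets of the other populations.

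**Figure D3:**
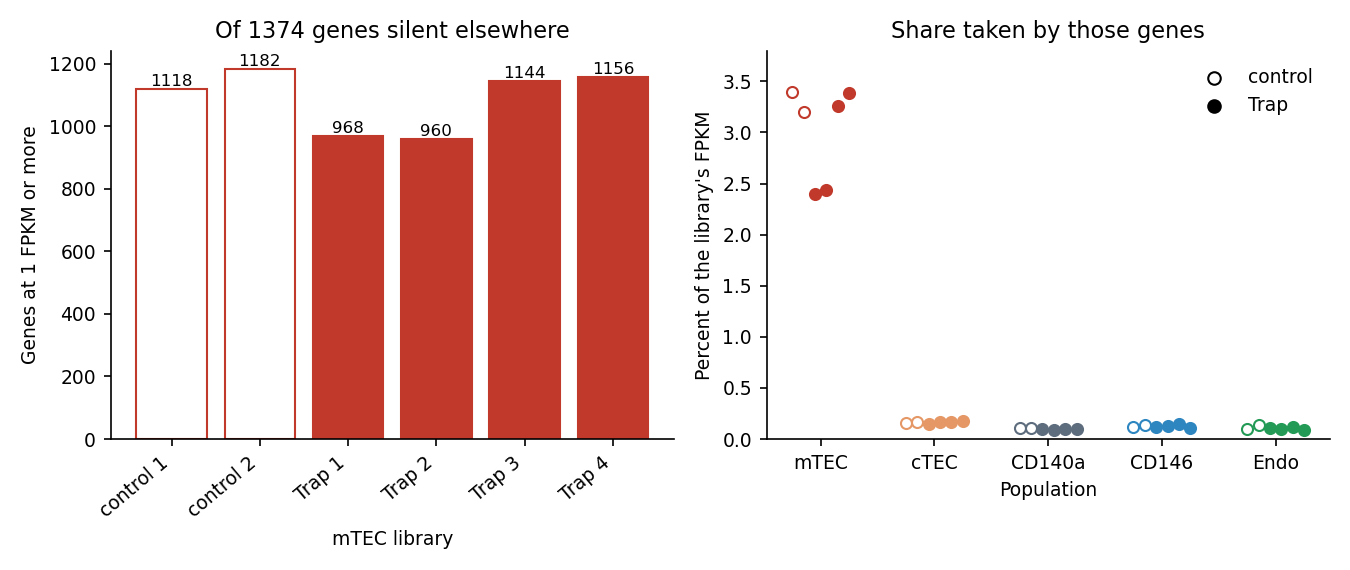
Left, how many of the genes silent outside mTEC reach 1 FPKM in each mTEC library (bars from 0; open bars control, filled bars Trap). Right, the percent of each library's summed FPKM taken by these genes, by population (open points control, filled points Trap). Trap libraries 1 and 2 have the lowest counts, 968 and 960, and the share is 2.40% to 3.39% in mTEC and at most 0.177% elsewhere.

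The highest of them are known from gut, breast, skin, taste cells and leukocytes. Lyz1 lay at 170.01, 189.6, 164.5, 113, 218 and 253 FPKM over the 6 libraries, and Lypd8, which keeps bacteria from the colon wall, at 63.1 to 179 FPKM. The casein gene Csn2 lay at 107 and 89.9 FPKM in the controls and 71.4, 53.3, 121 and 109 FPKM in the Trap libraries, against 0.573 FPKM in cTEC. Gnat3, the G protein subunit of taste cells, lay at 57.3 to 137 FPKM. S100a9, a calcium-binding protein of neutrophils, lay at 97.2 and 91.6 FPKM in the controls and at 36.6, 40.4, 80.3 and 85.0 FPKM in the Trap libraries. Desmosomal Dsg1b (43.7 to 94.4 FPKM), the embryonic factor gene Utf1 (39.6 to 101 FPKM), the epidermal gene Rptn (32.3 to 83.0 FPKM), the protease inhibitor gene Serpinb12 (39.2 to 74.2 FPKM) and the Paneth cell gene Ang4 (23.5 to 64.3 FPKM) followed. The limit of 1 FPKM cuts through a continuum. Among genes at 20 FPKM or more in mTEC, the nearest inside it were Gabrp, Dsg1b, Pglyrp1, Ccr4 and Rnase1, with highest other means of 0.955, 0.947, 0.91, 0.895 and 0.882 FPKM. The nearest outside it were Aire, Asprv1, Gp2, Krt15 and S100a8, with 1.05, 1.07, 1.07, 1.07 and 1.11 FPKM.

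Genes of mimetic programs were higher in mTEC in each list described here, though not in all members. Over all genes tested 39.4% were higher. Members silent elsewhere pass the filter on low values through mTEC, so their call was nearly set in advance and the shares are a description. Silent elsewhere were 5 of 16 keratinocyte genes, 6 of 15 tuft cell genes and 5 of 10 microfold genes. All 16 keratinocyte genes were higher, with a median difference of 3.17 against 0.19 over all genes tested. Krt14 averaged 157 ± 28.7 FPKM (SD, n = 6), the early differentiation gene Krtdap 53.7 ± 17.4 FPKM, and the protease inhibitor gene Spink5 46.2 ± 14.1 FPKM. Some other genes of the skin were far lower, with Krt1 at 1.80 to 3.70 FPKM, Flg at 1.29 to 2.43 FPKM and Ivl at 0.71 to 3.64 FPKM. Not all were low: Asprv1 lay at 21.55 to 91.7 FPKM, and Rptn and Sprr4 are given above. All 15 tuft cell genes in the table were higher, with a median of 1.60. After Gnat3, the phospholipase gene Plcb2 lay at 6.24 to 21.0 FPKM and the factor gene Pou2f3, which tuft cells require, averaged 14.8 FPKM against 7.08 FPKM in cTEC. Dclk1 was not analysed here. Of 10 microfold genes 9 were higher (median 3.91): Gp2, a receptor for gut bacteria, lay at 8.85 to 43.5 FPKM, Ccl9 at 16.8 to 46.2 FPKM and Ccl20 at 6.58 to 28.2 FPKM.

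Of 15 genes of enterocytes and hepatocytes 13 were higher (median 2.31). Of these 15, 9 were silent elsewhere, so that their call was nearly set in advance. The same holds for 6 neuroendocrine, 2 airway, 5 muscle, 4 ciliated cell and 1 ionocyte genes. The factor gene Hnf4g (6.12 to 12.1 FPKM) was silent elsewhere, while Hnf4a, at 0.572 FPKM, did not pass (0.19 ± 0.13; limma adjusted p = 0.211). The lipid transport genes Apoa4 (3.81 to 27.5 FPKM) and Fabp1 (6.19 to 18.3 FPKM) were higher. Of 12 neuroendocrine genes tested 9 were higher (median 1.97), with the granule protein gene Chga at 19.9 to 90.9 FPKM and the factor gene Insm1 at 8.73 to 20.7 FPKM. Of 10 airway genes 9 were higher (median 3.31): Scgb1a1, the club cell secretoglobin, lay at 48.0 to 145 FPKM, and Bpifa1 at 43.9 to 198 FPKM in mTEC and 32.2 FPKM in cTEC. Of 14 muscle genes 12 passed the filter on low values and 10 were higher (median 1.31). Titin, Ttn, led at 13.6 to 22.1 FPKM, and the factor gene Myog averaged 1.43 ± 0.61 FPKM. The factor gene Myod1 did not pass the filter, at 0.045 FPKM in mTEC and 0.267 FPKM in CD146. Of 11 genes of ciliated cells 7 were higher and 1, Tppp3, lower (median 0.64). Foxj1, which drives cilia formation, lay at 2.14 to 5.79 FPKM. Under quantile normalization, where 27.1% of all genes were higher, the ciliated list had 3 higher and 2 lower and the neuroendocrine list 7 higher and 2 lower. Of 7 ionocyte genes 3 passed the filter on low values and 2 were higher, the chloride channel gene Cftr at 10.95 to 16.8 FPKM and the factor gene Foxi1 at 0.58 to 5.07 FPKM.

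**Figure D4:**
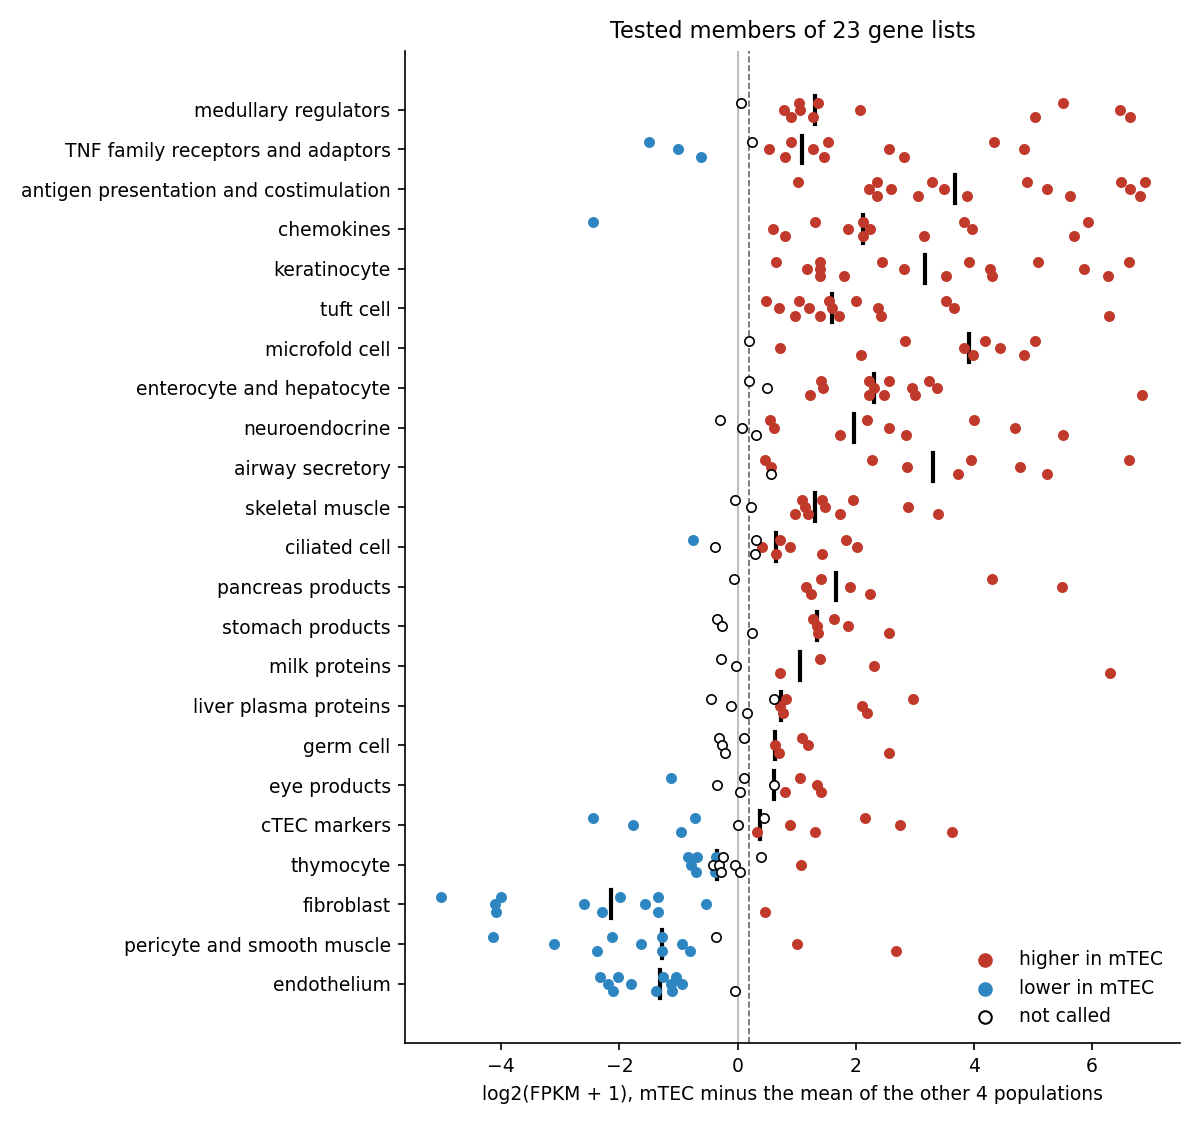
Each point is 1 tested gene of a list (rows), placed by its difference on the log2(FPKM + 1) scale, mTEC minus the mean of the other 4 populations; filled red points are higher, blue lower, open not called, the black bar is the list's median and the dashed line the median of all genes tested, 0.19. The keratinocyte list has a median of 3.17 and the endothelium list of -1.32.

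Products of whole organs differed by organ and by gene. Over all genes tested 39.4% were higher. Members silent elsewhere pass the filter on low values through mTEC, so their call was nearly set in advance and the shares are a description. Silent elsewhere were 5 pancreas, 3 milk, 6 stomach, 3 liver, 4 eye and 1 germ cell genes. The shares count tested genes only. The table held 12 genes each of the pancreas, liver, eye and germ cell lists, 9 of the stomach list and 7 of the milk list. Of 8 pancreas genes tested 7 were higher. The islet hormone genes Iapp (34.2 to 96.6 FPKM) and Sst (9.05 to 38.5 FPKM) were well above Ins2, the insulin gene, at 0.48 to 3.51 FPKM. Of the digestive enzyme genes, the lipase gene Cel averaged 3.30 FPKM, the trypsin gene Prss2 1.49 FPKM and the lipase gene Pnlip 0.787 FPKM. Of 6 milk protein genes 4 were higher. Csn1s2a lay at 2.19 to 5.76 FPKM and Csn1s1 at 0.43 to 2.55 FPKM. Among the table's genes both lie beside Csn2, and both were far below it. Lalba was listed at 0 in the 6 mTEC libraries. Of 9 stomach genes 6 were higher, with pepsinogen, Pgc, at 6.23 ± 3.04 FPKM. Of 10 plasma protein genes of the liver 6 were higher, with Crp at 5.49 to 21.4 FPKM and albumin, Alb, counted with the enterocyte and hepatocyte genes, at 1.94 ± 1.32 FPKM. Of 9 eye genes 4 were higher and 1 lower, a share near that of all genes. Of 9 germ cell genes 5 were higher, led by Tex14 (9.26 ± 1.89 FPKM). Under quantile normalization 1 gene of the milk list, 2 of the liver list and 2 of the germ cell list were called lower, and the eye list had 3 higher and 3 lower.

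The parathyroid and thyroid lie close to the thymus, so their genes are given apart. Gcm2, the defining factor of the parathyroid, lay at 3.10 and 1.70 FPKM in the controls and 5.30, 2.56, 7.14 and 4.11 FPKM in the Trap libraries, and at most 0.22 FPKM elsewhere. The calcium sensor gene Casr, also of the parathyroid, lay at 9.15 to 13.5 FPKM. Casr thus varied far less than Pth over the same libraries, and control replicate 2 was the lowest in Pth, Gcm2 and Casr. Of 9 thyroid genes 6 passed the filter on low values and 5 were higher. Of the 9, 3 were silent elsewhere, and such genes pass the filter through mTEC. The hormone-activating enzyme gene Dio1 lay at 14.9 to 23.9 FPKM and thyroglobulin, Tg, at 1.31 ± 1.10 FPKM, while Pax8 and Nkx2-1 averaged 0.255 and 0.653 FPKM. Whether parathyroid cells were in the gate was not tested.

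In some gene families most members were silent outside mTEC. Genes silent elsewhere pass the filter on low values through their mTEC libraries, so their call as higher was nearly set in advance. Of 1365 such genes tested, 1327 were called higher. Of 26 kallikrein genes in the table, secreted serine proteases of skin and glands, 23 were silent outside mTEC and 23 of 24 tested were higher. Klk1 was the highest, at 21.4 to 44.9 FPKM, and Klk7, which sheds the outer skin layer, lay at 8.65 to 23.7 FPKM. Of 21 beta-defensins, antimicrobial peptides, 14 were silent outside mTEC, but library values jumped: Defb14 was at 0, 7.07, 9.89, 1.56, 1.47 and 0.89 FPKM. Of 12 mucins 7 were silent elsewhere and 11 were higher, with Muc5b at 18.0 to 56.8 FPKM. Of 49 keratins 19 were silent elsewhere and 37 of 38 tested were higher. Of 27 bitter taste receptors 8 were silent elsewhere, and 12 of 15 tested were higher and 3 lower. Olfactory receptors stood apart from these: 7 of 285 were silent elsewhere and 14 of 54 tested were higher against 20 lower. Of 353 Zfp zinc finger genes 6 were silent elsewhere, and 69 of 334 tested were higher against 64 lower, a balance that went to 34 and 174 under quantile normalization. Of 31 ribosomal protein genes 0 were silent elsewhere. Over all genes the share silent elsewhere was 7.29%, and of all genes tested 39.4% were higher and 18.2% lower. The shares of olfactory receptors and Zfp genes called higher were thus under that of all genes. Members of the kallikrein, defensin, keratin and receptor families are close copies, and reads may have been split between them.

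Some genes silent outside mTEC were neighbours in the order of the table's genes along the chromosomes. The table holds protein-coding genes only, so genes absent from it may lie between such neighbours or within a run. Of 1373 with a position, 474 (34.5%) had another as their direct neighbour, while 13.4% of all genes lay beside such a gene. For the sets of the other populations 5.46% to 11.4% had a neighbour of their own set, while 1.93% of all genes lay beside a gene of the CD140a set, 2.30% for CD146, 1.47% for cTEC and 3.28% for endothelium. Relative to that background the share was 2.58 times in mTEC and 2.84 to 4.34 times in the other sets. The sets differ in size, which raises the raw share and the number of runs in mTEC. The larger background also lowers the ratio that mTEC can reach, and the other ratios rest on 9 to 36 genes. Whether neighbours were more frequent in mTEC can therefore not be told from these measures. The mTEC set held 47 runs of 3 or more neighbouring genes, with 196 genes in all, against 0 to 2 runs in the other sets. The longest had 18 genes, Klk11 to Klk1b16 on chromosome 7 (43774604 to 44141610, GRCm38), with means from 1.74 to 17.4 FPKM. In gene order, Klk14 and Klk13 before it and Klk1b3, Klk1b4, Klk1b5 and Klk1 after it were silent elsewhere too. Klk12, at 0.717 FPKM in mTEC and 1.93 FPKM in endothelium, and Klk1b24, at 0.678 FPKM in mTEC, were the genes of the block outside the set. Runs of 7 covered the defensins Defb14 to Defb8 (chromosome 8, 19194357 to 19447606) and the carboxylesterases Ces1c to Ces5a (chromosome 8, 93099015 to 93535830). Another run of 7 held the demilune cell protein genes Dcpp1, Dcpp2 and Dcpp3 with Sbp, Sbpl, Prss30 and Prss22 (chromosome 17, 23880876 to 23998100). Runs of 6 held the urinary proteins Mup4 to Mup18 (chromosome 4, 59956804 to 61674136) and the keratins Krt1 to Krt78 (chromosome 15, 101845426 to 101954287). Several runs are families of close copies, but not all: Alpi, Akp3, Ecel1, Prss56, Chrnd and Chrng (chromosome 1, 87098002 to 87212694) include intestinal phosphatases and muscle receptor subunits. The same holds for Chit1, Chil1, Mybph, Adora1, Myog and Ppfia4 (chromosome 1, 134111242 to 134332928).

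**Figure D5:**
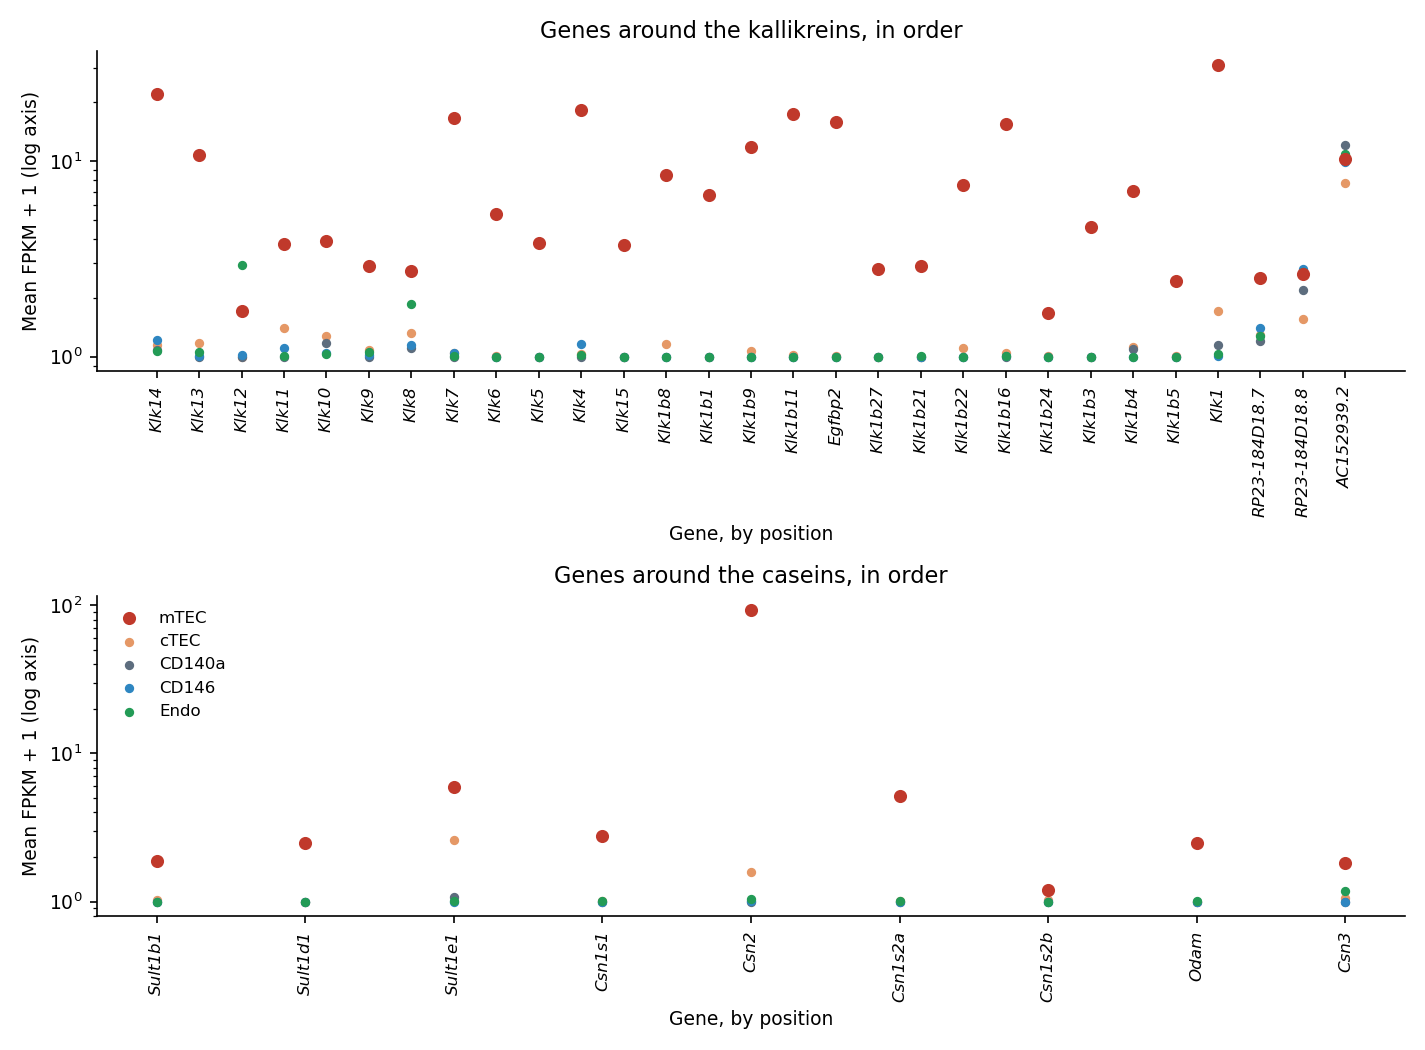
Mean FPKM + 1 (log axis) of each population for the table's genes in their order along the chromosome, around the kallikreins (upper panel) and the caseins (lower panel). In the upper panel 25 of 29 genes are silent outside mTEC, with mTEC means from 1.45 to 29.97 FPKM; in the lower panel Csn2 stands at 91.9 FPKM and its casein neighbours at 4.16 FPKM or less.

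The starts of these transcripts were poor in CG pairs. In the first 300 bases of 1 coding transcript per gene (GENCODE M21), a ratio of observed to expected CG pairs under 0.4 was found in 56.6% of the genes silent outside mTEC. The share was 28.6% over all genes and 35.9% to 49.2% in the sets silent outside another population. Within the mTEC set it was higher at higher levels: 53.6% from 1 to 5 FPKM, 63.9% from 5 to 20 FPKM and 80.9% of the 47 genes at 20 FPKM or more with a value. Genes higher in mTEC than in each other population but not silent there had 28.1%, and genes lower than in each 13.0%. The median number of CG pairs in these 300 bases was 7 in the mTEC set and 15 over all genes. Values were found for 99.2% of the set and 99.5% of all genes. These shares are descriptions of sets defined by level.

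Trap against control changed few genes in mTEC. Of all genes tested, 4 were higher (0.0244%) and 53 lower (0.323%) with Trap in mTEC, and of the genes silent elsewhere 1 was higher and 43 lower. An unadjusted p under 0.05 was reached by 414 higher and 817 lower genes. Fitted on the 6 mTEC libraries alone, limma called 0 genes, with 872 at an unadjusted p under 0.05 and a smallest adjusted p of 0.527. In the fit over all 30 libraries the spread is shared with populations in which the genes silent elsewhere are under 1 FPKM. With 57 calls over all libraries, 30 were left without control replicate 1 and 149 were made without control replicate 2. Without Trap replicates 1, 2, 3 and 4 there were 88, 93, 103 and 103. The median change was -0.17 over the genes silent elsewhere and -0.04 over all genes tested, and Trap replicates 1 and 2 were the libraries with the fewest of these genes at 1 FPKM.

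The genes named here were chosen because control and Trap libraries did not overlap, so their values are a description. The reproductive homeobox gene Rhox2a lay at 5.59 and 10.3 FPKM in the controls and at 0, 0.39, 2.03 and 0 FPKM with Trap. The kallikrein gene Klk1b9 lay at 28.5 and 15.6 FPKM in the controls and 2.30, 4.26, 3.88 and 10.6 FPKM with Trap. Hsd17b6, a steroid dehydrogenase gene, lay at 7.56 and 3.11 FPKM in the controls and 1.27 to 1.74 FPKM with Trap. These 3 genes were at 0.39 FPKM or less in each library of the other populations. Spata2, an adaptor of TNF signalling, lay at 7.68 and 8.58 FPKM in the controls and at 17.1, 15.2, 13.8 and 15.5 FPKM with Trap. The changes on the log2 scale were -2.59 for Rhox2a, -1.98 for Klk1b9, -1.28 for Hsd17b6 and 0.84 for Spata2. These 4 were called in the fit of all libraries, whose spread for the first 3 comes largely from libraries near 0. On the mTEC libraries alone none of the 4 passed, with limma adjusted p of 0.842 to 0.876. Mmp10 and Arfgap1, with changes of 1.23 and 1.00, did not pass in the fit of all libraries (limma adjusted p = 0.0541 and 0.0581). Of the 12 markers of mTEC, the 12 regulators and the 16 presentation genes 0 were called with Trap in either direction, where 0.323% of all genes were called lower. In the fit of all libraries 1 gene each of the tuft cell, keratinocyte and skeletal muscle lists was called lower. The tuft cell gene was Chat, at 3.63 FPKM on average in the mTEC controls and 1.465 FPKM with Trap. On the mTEC libraries alone 0 genes were called. Aire changed by -0.04 ± 0.28 and Fezf2 by 0.03 ± 0.27 (limma adjusted p = 0.999 and 1.00). With Trap the difference between mTEC and the mean of the other 4 changed in 33 genes (0.201%), 1 upwards and 32 downwards. For a gene near 0 in the other populations this repeats the change within mTEC.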

How the data were processed

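RNA of 30 sorted stromal libraries was amplified before library building and sequenced as paired reads, per the labels' protocols. The authors deposited 1 table of FPKM per gene and library. The submitters' processing notes name bcl2fastq 2.17, STAR, DESeq2, GRCm38 and mm10; other versions, the gene annotation and the counting tool were not given in the sources used here. FPKM hold no read numbers, so the depth of the libraries is unknown and no counting intervals are given. Genes at 1 FPKM or more in at least 2 libraries were tested. Values were taken as log2(FPKM + 1), the pseudocount being 1, and fitted with limma 3.58.1 in R 4.3.3: 10 group means, a trended prior variance, populations weighted by their libraries, Benjamini-Hochberg adjustment over all genes tested and a threshold of 0.05. The fit was tested on simulated data. Alternatives changed the pseudocount, filter, scaling, weighting, libraries and replicate block.

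Genes were named by rule: the 15 largest higher and 10 largest lower differences without overlap between mTEC and the other libraries, the 15 highest silent elsewhere and 5 on either side of the limit, up to 5 list members of smallest p, the members that went the other way, and 3 genes per direction with Trap. Further list, family and locus members were named after their values were seen. Members and lists were chosen with earlier results of these data known. A few genes that the rule chose are not reported here.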

Additional observations from a re-analysis of the deposited data

Results flagged for a closer look

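In 7 of 158 genes examined, 1 of the 4 mTEC Trap libraries lay far from the others by Dixon's test. Chance alone flags about 1 in 20 groups, which is about as many. Chit1, a chitinase gene, reached 10.06 FPKM in Trap replicate 2 against 1.47 to 2.66 FPKM in the other Trap libraries, and Klk1b5, a kallikrein gene, 4.62 FPKM there against 0.55 to 0.69 FPKM. Krt5 was low in the same library, at 273 FPKM against 383 to 390.2 FPKM. Trap replicate 1 held 9.89 FPKM of the defensin gene Defb14, against 0.89 to 1.56 FPKM, and 3.39 FPKM of thyroglobulin, Tg, against 0.44 to 0.88 FPKM. Trap replicate 4 held 3.95 FPKM of Enpep, which encodes the Ly51 of the sort gate, against 1.42 to 1.82 FPKM. The same library held 2.47 FPKM of the gelatinase gene Mmp2, against 1.40 to 1.58 FPKM.

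In 3 genes that were chosen for their change with Trap in mTEC, limma's interaction test called the difference of mTEC from the other 4 populations changed, by -2.59 for Rhox2a, -2.01 for Klk1b9 and -1.29 for Hsd17b6. All 3 are at or near 0 in the other populations, so the test repeats the change within mTEC with a spread taken largely from libraries near 0. On the mTEC libraries alone none of them passed, with adjusted p of 0.842, 0.853 and 0.876.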

How the results depend on the processing

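The counts of genes called with Trap moved by more than 1.5 times under several settings. Of 57 genes called with Trap in mTEC there were 9 with a pseudocount of 0.1, 36 with 0.5, 205 with no filter on low values, 10 among genes at 1 FPKM in at least 6 libraries and 0 on the mTEC libraries alone, an alternative added after seeing the data. The change of the mTEC difference with Trap, called for 33 genes, gave 7, 21, 124 and 4 under the first 4 of these. Leaving out 1 library gave 30 to 149 calls with Trap and 13 to 112 for the change. It gave 6088 to 6628 genes higher than the mean of the other populations, 2760 to 3130 lower, 2635 to 2903 higher than each, 379 to 446 lower than each and 1342 to 1422 silent elsewhere.

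Genes lower than in each other population numbered 416, and 705 after rescaling to TPM, 743 after upper quartile scaling and 1341 after quantile normalization. The last also gave 5838 genes lower than the mean of the others. The control libraries alone, 2 a population, gave 4209 higher, 1622 lower, 1709 higher than each and 136 lower than each. The genes silent elsewhere numbered 2290 with a limit of 2 FPKM, 756 with no other library at 1 FPKM and 836 after quantile normalization. Under quantile normalization Hnf4a turned to -0.33 and the thyrotropin receptor gene Tshr to -0.0543, and in the controls alone the protamine gene Prm1 turned to -0.17. The causes were not tested.

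Same-numbered libraries of different populations correlated at -0.05 to 0.10 in their deviations from the group means, with a median of 0.025. Libraries with other numbers correlated at -0.09 to 0.08, with a median of -0.008. Whether the numbers pair the libraries can not be told from values this small. With the replicate block there were 6508 genes higher and 3020 lower than the mean of the others, 2839 higher and 429 lower than each, and 22 for the change with Trap; as a random effect the block left 57 with Trap.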

Other observations

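Of 12 markers of cortical epithelium, 6 were higher in mTEC than the mean of the other 4 populations and 4 lower. Over all genes tested 39.4% were higher and 18.2% lower. Against cTEC alone the list's median difference was -3.13, and 0 of the 12 were higher than in each other population. Foxn1, the master factor of thymic epithelium, averaged 41.8 FPKM in mTEC and 70.2 FPKM in cTEC (3.64 ± 0.30 against the mean of the others). The thymoproteasome gene Psmb11 averaged 0.90 FPKM against 34.6 FPKM (-0.72 ± 0.15), and the protease gene Prss16 7.48 FPKM against 318 FPKM.

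All 14 cell cycle genes were higher in mTEC than the mean of the other populations, with a median of 0.91, and 0 were higher than in each. Of all genes tested 39.4% were higher. After rescaling to TPM, upper quartile scaling or quantile normalization 10 of the 14 were higher, with medians of 0.64 to 0.72. The proliferation marker Mki67 averaged 77.3 FPKM in mTEC and 71.3 FPKM in cTEC. Of 6 genes of the nervous system tested 4 were higher: the myelin gene Mbp lay at 7.01 to 11.9 FPKM and Gad1, which makes the transmitter GABA, at 1.15 to 4.35 FPKM. Of 4 salivary genes tested 3 were higher, with Dcpp1 at 6.66 to 19.0 FPKM and the carbonic anhydrase gene Car6 at 3.03 to 7.86 FPKM. In the nervous system list 2 genes were silent elsewhere, and 2 in the salivary list. Such genes pass the filter on low values through mTEC, so their call was nearly set in advance.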
